A study of Homo sapiens with 6 samples.

Results

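Sterol metabolism was examined through 8 genes picked by name from the 20333 gene intervals of the deposited table: INSIG1, HMGCS1, SQLE, IDI1, FDFT1, LSS, STARD4 and SREBF2. All 8 were present once, with at least 281 counts in every library, and all 8 were among the 19902 intervals that passed the filter on low counts. The set holds 5 enzymes of cholesterol synthesis (HMGCS1, IDI1, FDFT1, SQLE and LSS), a transcription factor and its brake (SREBF2 and INSIG1) and a carrier protein (STARD4). None of them is a receptor for cholesterol uptake.

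T47D cells, a luminal breast cancer line (genotype given as ERpos HER2neg: estrogen receptor positive, HER2 negative) obtained from ATCC, were used in growth factor-complete medium. They were treated for 5 h with the solvent DMSO, with 500 nM GDC0068, which blocks AKT catalysis, or with 100 nM INY-05-040, a second-generation AKT degrader, whose arm the labels name Degrader. GDC0068 leaves the AKT proteins in place, while a degrader removes them. The doses differ because they had been chosen to suppress signalling below AKT to a like degree. The assay was PRO-seq, a nuclear run-on method. Permeabilised cells are supplied with labelled nucleotides, which only polymerases that were transcribing at harvest can add to their RNA, so the reads in a gene follow polymerase activity and not the store of mature RNA. Each arm had 2 libraries, numbered 1 and 2 in the labels, from 2 independent experiments. The labels do not say that the numbers are those experiments, so p-values measure the spread between these libraries only.

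Library totals ranged from 25371819 to 32192576 counts. Values are given as counts per 1000000 counts of the scaled library (CPM), and changes as log2 fold changes from edgeR. A gene was called when its edgeR p-value, adjusted by Benjamini-Hochberg over all 19902 genes, was under 0.05. All 10 markers of luminal breast epithelium that were looked up (ESR1, PGR, GATA3, FOXA1, KRT8, KRT18, KRT19, SPDEF, XBP1 and TFF1) were above 1 CPM in every library, with a summed level of 5588 to 5910 CPM in DMSO, 5690 to 5961 CPM under GDC0068 and 5941 to 6000 CPM under Degrader. Of 18 markers of basal, fibroblast, immune and endothelial cells, 1 had an interval in the table, the monocyte gene CD14, with 10 to 17 counts per library. In a pool of cells, a large change in some cells and a smaller one in all cells cannot be told apart. Changes are relative to the bulk of genes. The submitters' processing notes name the fly build dm3 with no role, and whether spiked-in fly material was part of the libraries is not known here. Scaling to such material could shift every fold change by a common amount and was not done.

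Cells make cholesterol from acetyl-CoA through the mevalonate pathway. The transcription factor SREBP-2, the product of SREBF2, switches on the genes of that pathway, and also its own gene and that of INSIG1. When sterols are plentiful, INSIG1 holds SREBP-2 and its escort SCAP in the endoplasmic reticulum, so that the precursor is not cut and does not reach the nucleus. AKT and mTORC1 are known to promote SREBP activity, which links growth factor signalling to lipid synthesis.

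The promoters of INSIG1 and SREBF2 are printed because these were the 2 members called against DMSO. SREBP-2 is known to act on both, as it does on other genes of the pathway. They come from a set of RefSeq promoter stretches (GRCh38.p14) in which 6 of the 8 members were found. SQLE and FDFT1 were missing from that set and were not searched. Each stretch covers the 250 bases before the RefSeq start, 5′ to 3′ on the plus strand, which is the strand of both genes. The INSIG1 stretch is chr7:155297628-155297877 and the SREBF2 stretch is chr22:41832855-41833104. Capitals mark matches to 3 motifs searched on both strands: TCACNCCAC, a form of the sterol regulatory element bound by SREBP, the E-box CACGTG, and CCAAT, the box bound by NF-Y, which reads ATTGG on the other strand. The motifs do not overlap in either stretch.
INSIG1: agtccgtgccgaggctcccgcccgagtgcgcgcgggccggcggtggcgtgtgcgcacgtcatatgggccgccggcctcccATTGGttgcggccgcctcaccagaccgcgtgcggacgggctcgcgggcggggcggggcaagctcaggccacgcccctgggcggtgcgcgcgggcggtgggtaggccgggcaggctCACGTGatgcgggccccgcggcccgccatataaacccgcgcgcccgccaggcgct
SREBF2: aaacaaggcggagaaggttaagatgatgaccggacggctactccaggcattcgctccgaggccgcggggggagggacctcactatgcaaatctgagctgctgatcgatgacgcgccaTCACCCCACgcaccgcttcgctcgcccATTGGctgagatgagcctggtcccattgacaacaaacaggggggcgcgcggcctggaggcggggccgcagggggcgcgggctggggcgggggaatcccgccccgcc
In SREBF2, the match to the sterol element begins 133 bases before the start and a CCAAT box 106 bases before it. In INSIG1, a CCAAT box begins 170 bases and an E-box 55 bases before the start, and this window has no match to the sterol element as spelled. Of 35116 RefSeq promoter stretches of the same length, 0.883% held the sterol element, 6.34% the E-box and 32.0% a CCAAT box. CCAAT boxes were found in 5 of the 6 members searched, with 2 each in HMGCS1 and STARD4, 1 in LSS and none in IDI1, whose RefSeq start lies 7818 bases before the start of its interval in the deposited table. The starts of the other 5 lay within 66 bases of each other in the 2 sources. These matches are descriptions of the letters and do not show binding.

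The question put to these genes was whether the degrader and the inhibitor change their transcription, and whether they do so alike. The drug arms differ in compound and dose, and AKT protein was not measured here. Loss of AKT therefore cannot be told apart from other effects of compound or dose in a difference between the drugs. Under Degrader, INSIG1 and SREBF2 rose against DMSO, and the other 6 genes were not called in the main fit, which has no replicate block. Under GDC0068 none of the 8 was called, by edgeR, DESeq2 or limma voom. In the main fit none had an unadjusted edgeR p under 0.05 there, as 20.0% of all genes did. With the replicate number as a block, the unadjusted edgeR p was 0.0219 for SREBF2, 0.0283 for STARD4 and 0.0368 for LSS. The smallest edgeR adjusted p was then 0.0942, for SREBF2. In the main fit, 5 of 8 had an unadjusted edgeR p under 0.05 between the drugs, against 14.1% of all genes. Under Degrader 4 of 8 did, where the share of all genes was not counted. In the direct comparison, INSIG1 was higher under Degrader. The calls against DMSO were 2 of 8 under Degrader, where 15.3% of all genes tested were called and 7.39% were called higher, and 0 of 8 under GDC0068, where 3.58% of all genes were called. Between the drugs, 1 of 8 was called, against 0.266% of all genes and 0.116% called higher. With the replicate number as a block, 4 of 8 were called under Degrader and 5 of 8 between the drugs. The block called 30.7% and 10.4% of all genes in these comparisons. The 8 genes were chosen with results of these data known, so these shares describe them and do not single them out.

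**Figure D1:**
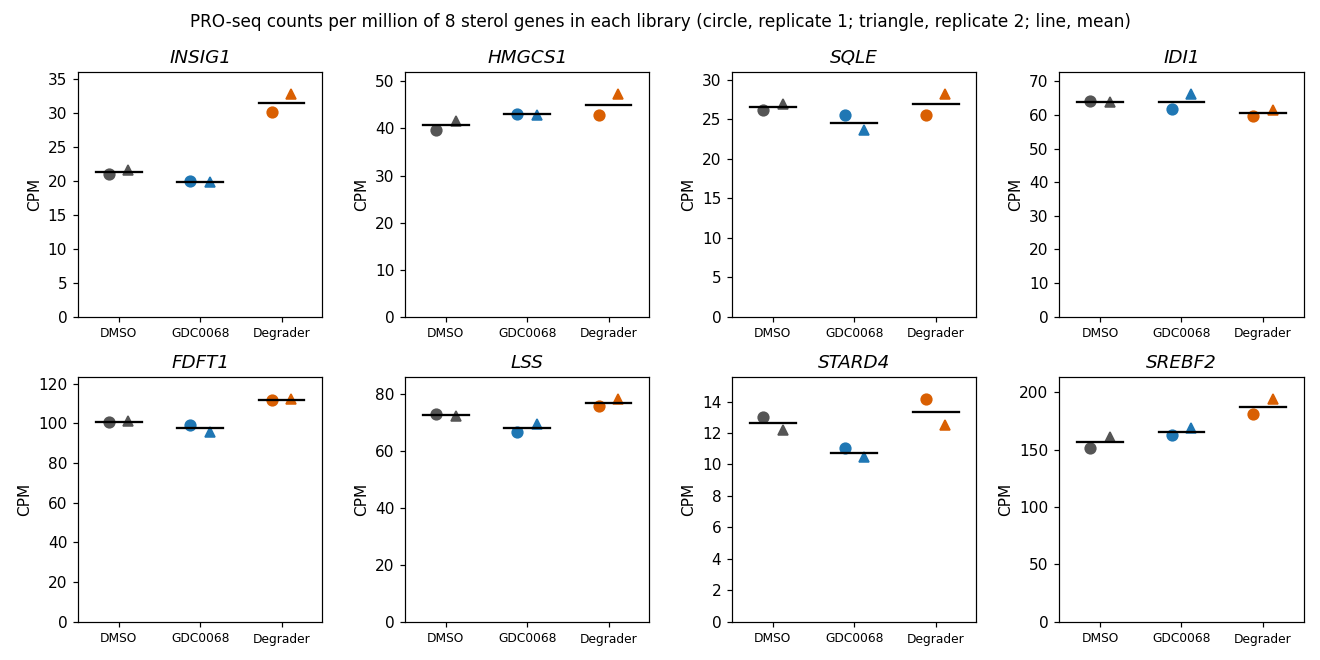
Level of each of the 8 genes in CPM (vertical axis, from 0) in the 2 libraries of DMSO, GDC0068 and Degrader (horizontal axis); circles are replicate 1, triangles replicate 2 and lines the mean. Both Degrader libraries of INSIG1, at 30.2 and 32.8 CPM, stand above the other 4, which lie between 19.8 and 21.5 CPM.

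INSIG1 encodes the membrane protein that retains the SCAP and SREBP-2 complex and that also promotes breakdown of HMG-CoA reductase when sterols are high. Its interval (ENSG00000186480, chromosome 7, 155297880 to 155310235, plus strand) overlaps no other interval of the table. It stood at 21.0 and 21.5 CPM in the 2 DMSO libraries, 19.9 and 19.8 CPM under GDC0068, and 30.2 and 32.8 CPM under Degrader. Both Degrader libraries were above every other library, and both GDC0068 libraries were just below both DMSO libraries. Under Degrader it rose against DMSO by 0.57 on the log2 scale (SE 0.0821, 95% interval 0.39 to 0.75, edgeR adjusted p = 0.00130), a fold of 1.48. Libraries of the same number gave 0.52 and 0.61. Under GDC0068 the log2 fold change was -0.10 (95% interval -0.28 to 0.09, edgeR adjusted p = 0.572).

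Between the drugs, INSIG1 was higher under Degrader by 0.66 on the log2 scale (SE 0.0829, 95% interval 0.48 to 0.84, edgeR adjusted p = 0.00827), a fold of 1.58. It ranked 11 of 19902 genes by p in that comparison and 94 by the size of the increase. The call was lost without GDC0068 replicate 1 (log2 fold change 0.67, edgeR adjusted p = 0.0718) and without Degrader replicate 2 (0.60, edgeR adjusted p = 0.103). The increase over DMSO was called without any 1 of the 6 libraries, with edgeR adjusted p values up to 0.0225.

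SREBF2 encodes the precursor of SREBP-2 and hosts, inside the gene, the microRNA miR-33a, which is known to repress the cholesterol exporter ABCA1. The interval (ENSG00000198911, chromosome 22, 41833137 to 41907305, plus strand) held 152 and 161 CPM in DMSO, 162 and 169 CPM under GDC0068 and 181 and 194 CPM under Degrader. The 3 arms did not overlap and stood in the order DMSO, GDC0068, Degrader. Under Degrader it rose by 0.26 on the log2 scale (SE 0.0541, 95% interval 0.15 to 0.38, edgeR adjusted p = 0.00810). The call was lost without DMSO replicate 1 (0.22, edgeR adjusted p = 0.105) and without Degrader replicate 2 (0.21, edgeR adjusted p = 0.115). Under GDC0068 the log2 fold change was 0.08 (95% interval -0.03 to 0.20, edgeR adjusted p = 0.417). Between the drugs it was 0.18 in favour of Degrader (95% interval 0.06 to 0.30), which was not called (edgeR adjusted p = 0.175) but was called with the replicate number as a block (edgeR adjusted p = 0.00109).

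The mature miR-33a-5p is printed to show its seed, bases 2 to 8, in capitals (RefSeq, GRCh38.p14, chr22:41900949-41900969, plus strand).
hsa-miR-33a-5p: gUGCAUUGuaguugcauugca
The MIR33A interval of the table (chromosome 22, 41900163 to 41901012) is 850 bp long and lies on the same strand within SREBF2, so its reads cannot be told apart from those of the host gene. It held 96 to 149 counts per library, or 3.68 to 4.91 CPM, and was not called in any comparison, with an edgeR adjusted p of 0.652 or more. A second interval, SREBF2-AS1, overlaps the SREBF2 interval by 616 bp on the opposite strand and held 229 to 290 counts. Its log2 fold change under Degrader was 0.23 (edgeR adjusted p = 0.240). Use of strand in the counting is not given in the sources used here, so reads in the overlap cannot be assigned to one of the 2 genes.

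**Figure D2:**
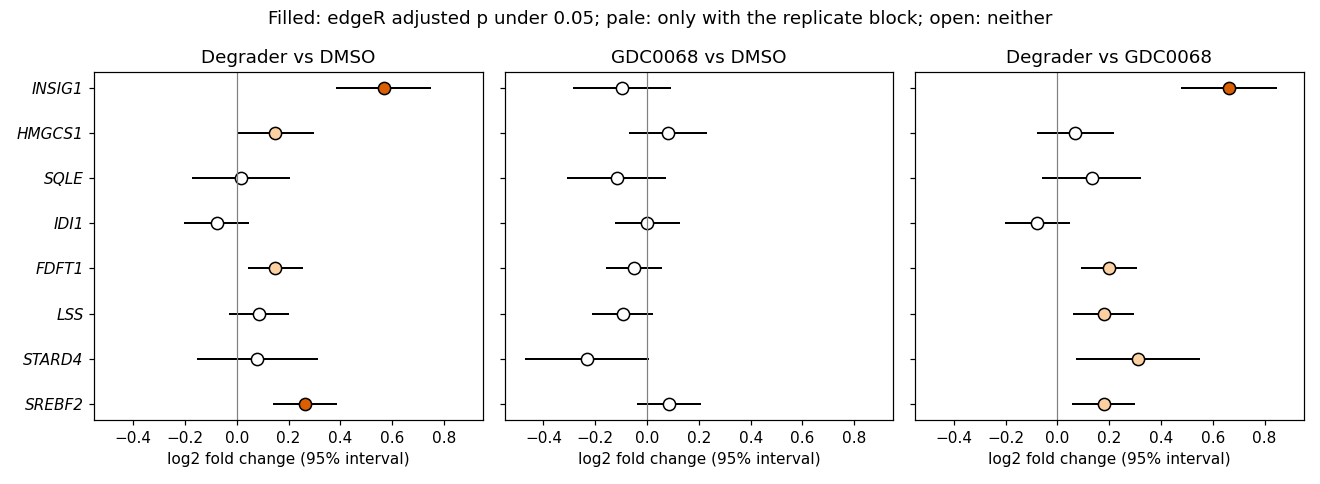
Log2 fold change (horizontal axis) of each gene in the 3 comparisons, with the 95% interval from the edgeR fit as a line; filled points have an edgeR adjusted p under 0.05, pale points only with the replicate block, and open points neither. INSIG1 lies at 0.57 against DMSO and 0.66 between the drugs, and 7 of 8 points lie to the right of 0 in both panels with Degrader.

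The enzymes are given in the order of the pathway. HMGCS1 makes HMG-CoA from acetyl-CoA units, the step before the rate-limiting reductase. It stood at 39.7 and 41.7 CPM in DMSO, 43.1 and 42.9 CPM under GDC0068 and 42.8 and 47.3 CPM under Degrader (ENSG00000112972, chromosome 5, 43289395 to 43313478, minus strand). Both drugs' libraries lay above both DMSO libraries, while those of the 2 drugs overlapped. The change under Degrader was 0.15 on the log2 scale (95% interval 0.0036 to 0.29, edgeR adjusted p = 0.158). It passed once the replicate number was a block (0.15, edgeR adjusted p = 0.0465). Without Degrader replicate 2 it was 0.07 (edgeR adjusted p = 0.695). Between the drugs the difference was 0.07 (95% interval -0.08 to 0.21, edgeR adjusted p = 0.680).

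IDI1 interconverts the 2 isoprene building blocks. It was the member with a decrease in sign under Degrader, at 64.2 and 63.8 CPM in DMSO, 61.7 and 66.2 CPM under GDC0068 and 59.7 and 61.6 CPM under Degrader (ENSG00000067064, chromosome 10, 1039908 to 1048886, minus strand). Both Degrader libraries were the lowest of the 6, and the GDC0068 libraries lay on either side of DMSO. Its log2 fold change was -0.08 under Degrader (95% interval -0.20 to 0.04, edgeR adjusted p = 0.393) and 0.00 under GDC0068 (edgeR adjusted p = 0.998). The antisense interval IDI2-AS1 covers 4258 of its 8979 bp and held 507 to 688 counts. Its log2 fold changes were -0.15 under Degrader and -0.11 under GDC0068 (edgeR adjusted p of 0.252 and 0.509). As for SREBF2, reads in the overlap cannot be assigned to one of the genes.

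FDFT1 encodes squalene synthase, which commits the pathway to sterols. Its interval (ENSG00000079459, chromosome 8, 11802791 to 11839298, plus strand) held 100.5 and 101 CPM in DMSO, 99.2 and 95.7 CPM under GDC0068 and 112 CPM in both Degrader libraries. Every Degrader library was above, and every GDC0068 library below, the DMSO pair. The increase of 0.15 on the log2 scale against DMSO (SE 0.0473, 95% interval 0.05 to 0.25) had an edgeR adjusted p of 0.0547. A block on the replicate number brought the edgeR adjusted p to 0.00280, and robust estimation brought it to 0.0483, so both called the gene. Between the drugs the difference was 0.20 (95% interval 0.09 to 0.30), which was not called (edgeR adjusted p = 0.107) but was with the block (edgeR adjusted p = 9.72e-04).

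SQLE encodes squalene epoxidase, an oxygen-dependent and rate-limiting step. It stood at 26.2 and 27.0 CPM in DMSO, 25.5 and 23.6 CPM under GDC0068 and 25.6 and 28.2 CPM under Degrader (ENSG00000104549, chromosome 8, 124998505 to 125022283, plus strand). The Degrader pair enclosed the DMSO pair. Its log2 fold change was 0.02 under Degrader (95% interval -0.17 to 0.20, edgeR adjusted p = 0.928) and -0.12 under GDC0068 (95% interval -0.30 to 0.07, edgeR adjusted p = 0.483).

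LSS encodes lanosterol synthase, which closes the first sterol ring system. It held 73.0 and 72.4 CPM in DMSO, 66.8 and 69.4 CPM under GDC0068 and 75.9 and 78.2 CPM under Degrader (ENSG00000160285, chromosome 21, 46189124 to 46228774, minus strand). The 3 arms did not overlap, with GDC0068 lowest and Degrader highest. Neither drug's change against DMSO was called (0.08 under Degrader, edgeR adjusted p = 0.305, and -0.09 under GDC0068, edgeR adjusted p = 0.340). Between the drugs the difference was 0.18 (95% interval 0.07 to 0.29, edgeR adjusted p = 0.163), and passed with a block on the number (edgeR adjusted p = 0.00792).

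STARD4 encodes a soluble protein that carries cholesterol between membranes, and it was the least transcribed of the 8. It stood at 13.0 and 12.2 CPM in DMSO, 11.1 and 10.5 CPM under GDC0068 and 14.1 and 12.5 CPM under Degrader (ENSG00000164211, chromosome 5, 111496033 to 111512485, minus strand). Both GDC0068 libraries were below the other 4, and the Degrader and DMSO libraries overlapped. Its log2 fold change of -0.23 under GDC0068 was the largest in size of the 8 in that comparison. It was not called (95% interval -0.47 to 0.0029, edgeR adjusted p = 0.256). Between the drugs the difference was 0.31 (SE 0.107, 95% interval 0.08 to 0.55, edgeR adjusted p = 0.231), and 0.31 with the replicate block (edgeR adjusted p = 0.0420).

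The interval STARD4-AS1, which does not overlap STARD4 and starts on the other strand 386 bases from it, held 7.75 and 7.39 CPM in DMSO, 8.18 and 7.46 CPM under GDC0068 and 10.6 and 9.78 CPM under Degrader. It was looked up as the partner of a member, after its values were seen. Against DMSO it rose by 0.43 in the Degrader arm (log2, edgeR adjusted p = 0.0312), a call lost with DESeq2 (adjusted p = 0.0744) and without any 1 of the 4 DMSO and Degrader libraries (edgeR adjusted p from 0.0994 to 0.156).

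The 8 genes were next compared as a group. Their summed level was 489 and 500.4 CPM in DMSO, 490 and 497 CPM under GDC0068 and 541 and 566 CPM under Degrader. Both Degrader libraries were above the other 4. The sum weighs genes by their counts and does not show a rise of each. From DMSO to Degrader, mean CPM went from 156 to 187 for SREBF2, 101 to 112 for FDFT1 and 21.3 to 31.5 for INSIG1. It went from 40.7 to 45.1 for HMGCS1 and 72.7 to 77.1 for LSS. For SQLE it went from 26.6 to 26.9, for STARD4 from 12.6 to 13.3 and for IDI1 from 64.0 to 60.6. Against DMSO, 7 of 8 had a positive log2 fold change under Degrader, with a median of 0.12 (-0.0014 over all genes tested), and 3 of 8 under GDC0068, with a median of -0.07 (0.01 over all genes). The 2 comparisons share their DMSO libraries. Between the drugs, 7 of 8 were positive, with a median of 0.18 (-0.0038 over all genes) and of 0.18 without INSIG1. By non-overlap of libraries, 6 of 8 were higher under Degrader than under GDC0068 and 1, IDI1, was lower, where 22.1% of all genes were higher and 22.9% lower. Against DMSO, 5 of 8 stood higher and 1 lower under Degrader (29.3% and 29.2% of all genes), and 2 higher and 5 lower under GDC0068 (26.1% and 24.0%).

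Entering the replicate number as a block raised the calls among the 8 to 4 under Degrader (INSIG1, SREBF2, FDFT1 and HMGCS1) and to 5 between the drugs (INSIG1, SREBF2, FDFT1, LSS and STARD4), all higher under Degrader. It left 0 under GDC0068. Over all genes the blocked fit called 30.7% (15.1% higher), 10.4% (5.03% higher) and 17.8% in these comparisons. Calls among the 8 from this fit are to be set beside those larger shares.

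**Figure D3:**
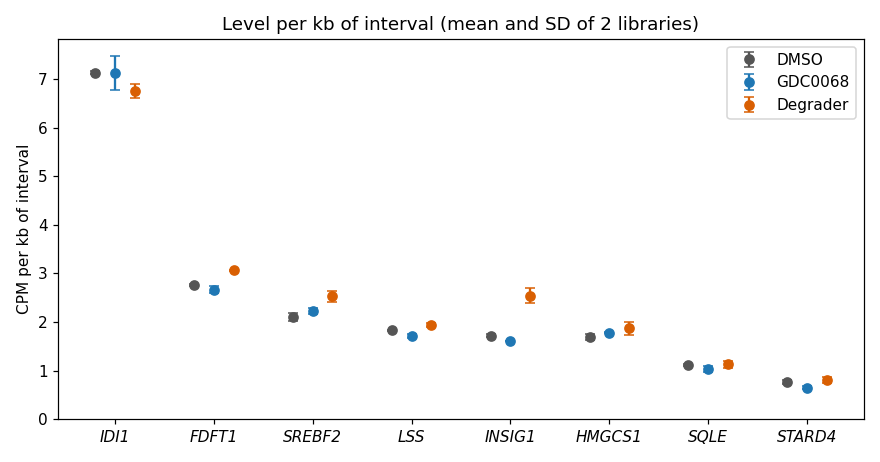
Level per kb of interval (CPM divided by interval length in kb, vertical axis from 0) for each gene, ordered by its level in DMSO; points are means and bars SD of 2 libraries, coloured by arm. INSIG1 goes from 1.72 in DMSO to 2.55 under Degrader. IDI1, whose interval is the shortest and overlaps IDI2-AS1, is the highest gene in every arm.

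To compare genes with each other, CPM were divided by the length of the interval in kb. In DMSO, IDI1 had the highest level at 7.12 ± 0.032 CPM per kb (SD, n = 2 here and below), followed by FDFT1 at 2.76 ± 0.015, SREBF2 at 2.11 ± 0.085, LSS at 1.83 ± 0.0096, INSIG1 at 1.72 ± 0.032, HMGCS1 at 1.69 ± 0.059, SQLE at 1.12 ± 0.023 and STARD4 at 0.766 ± 0.038 CPM per kb. INSIG1 and HMGCS1 differed by less than their spread, and the other neighbours in this order by more. Under Degrader, INSIG1 stood at 2.55 ± 0.15 CPM per kb, level with SREBF2 at 2.53 ± 0.12 within the spread. The part of the gene counted is not given in the sources used here.

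The rest of sterol metabolism was described through lists chosen with earlier results of these data known. The shares of all genes to set beside their counts are 15.3% called under Degrader (7.39% higher, 7.88% lower), 3.58% under GDC0068 (1.70% higher, 1.88% lower) and 0.266% between the drugs, with 14.1% at an unadjusted edgeR p under 0.05 between the drugs and 20.0% under GDC0068. With the replicate block the shares called are 30.7%, 17.8% and 10.4%. Of 16 other enzymes of cholesterol synthesis, edgeR called 1 higher and 0 lower under Degrader, and 0 in either comparison with GDC0068, where DESeq2 and limma voom also called 0 and 4 genes had an unadjusted edgeR p under 0.05 in each. The one called was HSD17B7, an enzyme of the late sterol steps, at 10.5 ± 1.7 CPM in DMSO and 13.8 ± 0.12 CPM under Degrader (log2 fold change 0.39, edgeR adjusted p = 0.0464). It was not called with DESeq2 (adjusted p = 0.0740), nor without DMSO replicate 1 (0.23, edgeR adjusted p = 0.354), Degrader replicate 1 (edgeR adjusted p = 0.143) or Degrader replicate 2 (edgeR adjusted p = 0.177). The median log2 fold change of the 16 was 0.02 under Degrader, with 10 positive, and -0.07 under GDC0068, with 3 positive. Between the drugs it was 0.12, with 15 of 16 positive. Of all 19902 genes tested, 9886, 10473 and 9727 were positive in these comparisons. With the replicate block, 2 were called higher under Degrader, 4 lower under GDC0068 (MVD, FDPS, MVK and DHCR7) and 3 higher between the drugs (MVK, MVD and FDPS). These genes are named because the block called them, after their values were seen. The smallest edgeR adjusted p with the block was that of MVK between the drugs (log2 fold change 0.22, 2.09e-04, and 0.0775 without the block).

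Of the 11 genes for sterol uptake and transport in the table (of 12 listed), 1 was called higher and 1 lower under Degrader, and 1 lower under GDC0068. Between the drugs 0 were called by edgeR, DESeq2 or limma voom, with 2 at an unadjusted edgeR p under 0.05. The 2 of 11 called under Degrader lie near the 15.3% of all genes. With the replicate block the calls were 2 higher and 3 lower under Degrader, 2 lower under GDC0068 (SCARB1 and TMEM97), and 1 higher and 1 lower between the drugs (NPC2 and MYLIP). NPC2, which moves cholesterol out of lysosomes, rose under Degrader from 10.4 ± 0.38 to 14.0 ± 0.49 CPM (log2 fold change 0.43, edgeR adjusted p = 0.0141). SCARB1, a receptor for HDL, fell from 203 ± 13 CPM to 155 ± 10.4 CPM under Degrader (-0.39, edgeR adjusted p = 0.00203) and to 159 ± 4.9 CPM under GDC0068 (-0.35, edgeR adjusted p = 0.0144). Under Degrader, the NPC2 call was lost without DMSO replicate 1 (edgeR adjusted p = 0.117) or Degrader replicate 2 (edgeR adjusted p = 0.124). Under GDC0068, that of SCARB1 was lost without DMSO replicate 1 (edgeR adjusted p = 0.127) or GDC0068 replicate 2 (edgeR adjusted p = 0.0905).

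Among 10 genes that control SREBP or work with INSIG proteins, edgeR called 1 higher and 1 lower under Degrader. None was called under GDC0068 or between the drugs by edgeR, DESeq2 or limma voom. In these 2 comparisons, 1 and 2 genes had an unadjusted edgeR p under 0.05. The 2 of 10 called under Degrader lie near the 15.3% of all genes, and DESeq2 called 1 of them. The blocked fit called 4 higher and 2 lower under Degrader, 1 higher under GDC0068 (MBTPS1), and 1 higher and 1 lower between the drugs (MBTPS1 and SREBF1). MBTPS1, the protease that makes the first cut in SREBP, rose from 289 ± 3.9 to 361 ± 17 CPM (log2 fold change 0.32, edgeR adjusted p = 0.00760). SREBF1, whose product acts mostly on fatty acid genes, fell from 131 ± 0.11 to 116 ± 2.5 CPM (-0.18, edgeR adjusted p = 0.0324). INSIG2, the paralog of INSIG1, stood at 11.3 and 12.6 CPM in DMSO, 13.3 and 13.2 CPM under GDC0068 and 14.2 and 14.1 CPM under Degrader. Against DMSO, INSIG2 differed by 0.25 in the Degrader arm (95% interval 0.03 to 0.47, edgeR adjusted p = 0.115), a difference called with a block on the number (edgeR adjusted p = 0.0473). The MBTPS1 call was lost without DMSO replicate 1 (edgeR adjusted p = 0.0777) or Degrader replicate 2 (edgeR adjusted p = 0.103), and the SREBF1 call without any 1 of the 4 libraries compared (edgeR adjusted p from 0.105 to 0.175). Between the drugs INSIG2 differed by 0.09 (95% interval -0.12 to 0.31, edgeR adjusted p = 0.716).

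**Figure D4:**
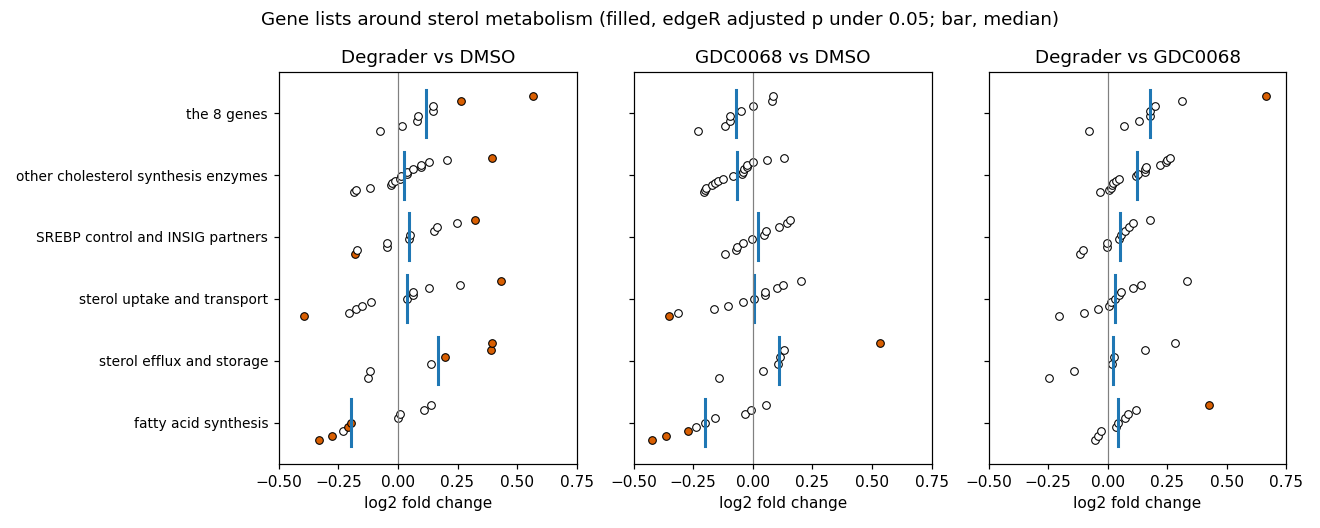
Log2 fold change (horizontal axis) of every tested gene in 6 lists (rows) for the 3 comparisons; filled points have an edgeR adjusted p under 0.05 and blue bars are medians. The 8 genes have medians of 0.12, -0.07 and 0.18, and the fatty acid list -0.20, -0.20 and 0.04.

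Of 6 genes for sterol efflux and storage, edgeR called 3 higher under Degrader and 1 higher under GDC0068. None was called between the drugs by edgeR, DESeq2 or limma voom, with 3 at an unadjusted edgeR p under 0.05. The shares of all genes called higher were 7.39% under Degrader and 1.70% under GDC0068, and DESeq2 called 2 of the 3 under Degrader. With the replicate block, 2 were called higher (NR1H2 and NR1H3) and 1 lower (ABCG1) between the drugs, and the counts against DMSO stayed at 3 and 1. ABCA1, which exports cholesterol to apolipoproteins, stood at 13.8 ± 1.9 CPM in DMSO and rose to 18.1 ± 0.90 CPM under Degrader (log2 fold change 0.39, edgeR adjusted p = 0.0315) and to 19.9 ± 0.54 CPM under GDC0068 (0.53, edgeR adjusted p = 0.0253). The sterol-sensing receptor genes NR1H2 and NR1H3 rose under Degrader by 0.39 and 0.20 (edgeR adjusted p of 0.00808 and 0.0322). ABCA1 lost its call under Degrader without DMSO replicate 1 (0.25, edgeR adjusted p = 0.273), Degrader replicate 1 (edgeR adjusted p = 0.145) or Degrader replicate 2 (edgeR adjusted p = 0.0927). Under GDC0068 it lost it without DMSO replicate 1 (edgeR adjusted p = 0.192), GDC0068 replicate 1 (edgeR adjusted p = 0.0624) or GDC0068 replicate 2 (edgeR adjusted p = 0.109). NR1H2 lost its call without DMSO replicate 1 (edgeR adjusted p = 0.0866) or Degrader replicate 1 (edgeR adjusted p = 0.0591), and NR1H3 without DMSO replicate 1 (edgeR adjusted p = 0.254) or either Degrader library (edgeR adjusted p of 0.0818 and 0.217).

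The 9 fatty acid synthesis genes in the table (of 10 listed) gave 4 lower calls under Degrader and 3 under GDC0068, with medians of -0.20 in both. The shares of all genes called lower were 7.88% and 1.88%, and DESeq2 and limma voom called 4 of the 9 under each drug. The blocked fit called 1 higher and 5 lower under Degrader and 5 lower under GDC0068. ACACA, which makes malonyl-CoA, fell from 372 ± 13 CPM to 296 ± 10.6 CPM under Degrader (-0.33, edgeR adjusted p = 0.00484) and to 289 ± 20 CPM under GDC0068 (-0.37, edgeR adjusted p = 0.0116). FASN, the fatty acid synthase, fell by 0.28 and ELOVL5, an elongase, by 0.21 under Degrader (edgeR adjusted p of 0.0133 and 0.0167). Under GDC0068 their log2 fold changes were -0.24 and -0.16 (edgeR adjusted p of 0.0630 and 0.107, and 3.02e-05 and 0.00209 with the block). Between the drugs they differed by -0.04 and -0.05 (edgeR adjusted p of 0.811 and 0.682). ACLY, which supplies acetyl-CoA, fell by 0.20 under Degrader (edgeR adjusted p = 0.0259) and by 0.27 under GDC0068 (edgeR adjusted p = 0.0207). SCD, the stearoyl-CoA desaturase, stood at 96.8 and 94.5 CPM in DMSO, 72.4 and 70.3 CPM under GDC0068 and 93.0 and 98.4 CPM under Degrader. It fell under GDC0068 (-0.42, edgeR adjusted p = 0.00329) and was higher under Degrader than under GDC0068 by 0.42 (edgeR adjusted p = 0.00827). That difference was not called without GDC0068 replicate 1 (edgeR adjusted p = 0.0686) or Degrader replicate 2 (edgeR adjusted p = 0.103). FASN lost its call without DMSO replicate 1 (edgeR adjusted p = 0.145) or Degrader replicate 2 (edgeR adjusted p = 0.117). ELOVL5 under Degrader (edgeR adjusted p from 0.0719 to 0.0974) and ACLY under Degrader (0.0549 to 0.207) and GDC0068 (0.0657 to 0.160) lost theirs without any 1 of the 4 libraries compared. ACACA under GDC0068 lost its call without either DMSO library (edgeR adjusted p of 0.0688 and 0.0845) or GDC0068 replicate 1 (edgeR adjusted p = 0.0552).

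At genes of the 5 other lists, 18 calls were described. Leaving out 1 library also lowered the number of calls over all genes in some fits, as given in the closing section. A call lost in this way, here or above, therefore does not by itself show that it rested on that library. HSD17B7 under Degrader was 0.39 in the main fit. It was 0.38 without Degrader replicate 1 and 0.39 without Degrader replicate 2, but 0.23 without DMSO replicate 1. Under the other 9 settings 15 of the 18 were kept. The exceptions were HSD17B7, SREBF1 (adjusted p = 0.0665) and NR1H3 (adjusted p = 0.0703) under Degrader, each lost with DESeq2.

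Lastly, the genes whose levels ran most like those of INSIG1 and HMGCS1 over the 6 libraries were listed, by the distance between log2 CPM profiles centred on each gene's mean, among genes of at least 10 CPM. Nearest to INSIG1 of 13896 genes were H2AC5P (distance 0.289), OLMALINC (0.297), AC015987.1 (0.299), LMCD1 (0.332) and NPC2 (0.336), against a median of 0.742 over all. Their log2 fold changes under Degrader were 0.44, 0.31, 0.53, 0.39 and 0.43, and under GDC0068 0.02, -0.12, 0.05, 0.05 and 0.10. Nearest to HMGCS1 were PRDM10 (0.0174), ZC3H13 (0.0216), ZSWIM3 (0.0355), FIS1 (0.037) and UMAD1 (0.0439), where the median was 0.272. Small distances are common for genes that change little, and genes found this way were chosen for their likeness, so no test was made.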

How the data were processed

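PRO-seq was available for 6 T47D libraries, 2 each for DMSO, GDC0068 and Degrader. The authors deposited one table of raw counts per gene interval; the values are whole numbers whose totals differ between libraries. The submitters' processing notes name cutadapt 1.14, Bowtie 1.2.2, SAMtools 1.3.1, HISAT2 2.2.1 and limma, and the builds dm3, hg38 and GRCh38, with no role. The counting tool, use of strand, removal of duplicates and the counted part of a gene are not given in the sources used here, and each can change the counts. No spike-in normalisation was applied here, so a change common to all genes is removed. Per the file headers, intervals carry a name, positions and strand; starts are written counting from 1. All 8 intervals overlapped the RefSeq gene of the same name in GRCh38.p14.

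Counts were fitted in R 4.3.3 with edgeR 4.0.16: filterByExpr defaults (minimum count 10, minimum total 15; 431 genes removed), TMM factors of 0.997 to 1.003, and one quasi-likelihood fit of 6 libraries with a term per arm and 3 residual degrees of freedom. The fit also borrowed information on spread from other genes, with a median of 8.65 prior degrees of freedom. Variation between libraries of an arm, as edgeR's common biological coefficient, came to 5.51%. SE is the log2 fold change divided by the square root of F, and 95% intervals use the fit's t distribution. Replicates within an arm differed by more than sampling noise (chi-square per degree of freedom 5.01 to 6.95). Same-numbered libraries deviated together from their arm means. Correlations across genes were 0.177, 0.220 and 0.204 for the 3 pairs of arms, and 0.419, 0.492 and 0.425 over the 13897 genes of at least 10 CPM. The replicate number was therefore taken to pair them. The main fit has no block, so this shared deviation stays in its error, and the block is given as an alternative. Other alternatives were other scaling factors, no filter, DESeq2 1.42.0, limma voom 3.58.1, robust estimation, the 4 libraries compared alone, and leaving out each library. With 2 libraries per arm no permutation test can reach 0.05. Named genes are the 8 members, up to 3 called genes per list and comparison with the smallest adjusted p, INSIG2 and the 5 nearest genes. Some genes of the rule and lists are not reported here and are left out of the list counts. The members and lists were chosen with earlier results of these data known. Promoter and miRNA sequences are from RefSeq, GRCh38.p14.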

Additional observations from a re-analysis of the deposited data

How the results depend on the processing

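Over the 15 alternatives, the 8 genes gave 360 values, of which 336 kept their direction and side of the threshold. Most of these were not called in the main fit and stayed so. This count therefore says little about the 3 calls among the 8, which are followed gene by gene above. With the replicate block, the Degrader arm had 6114 calls against DMSO, the GDC0068 arm 3540, and the drugs differed at 2065 genes, against 3039, 712 and 53 without it, and members called numbered 4 and 5 under Degrader and between the drugs, against 2 and 1. Calls between the drugs numbered 136 with DESeq2, 116 with robust estimation and 23 in the fit to 4 libraries. Leaving out 1 library gave 931 to 3217, 37 to 546 and 5 to 63 genes, and 1 to 2, 0 to 0 and 0 to 1 members; in these fits the lone library of an arm is assumed to vary like the other arms. The block changed the call of no member beyond those named with it. Signs turned where values lay near 0. IDI1 under GDC0068 was -0.0040 with DESeq2 size factors, -0.0041 without the filter, -0.0042 with DESeq2, -0.0009 with the block and -0.0048 in the fit to 4 libraries; it was -0.0043 without DMSO replicate 2, -0.0601 to 0.0485 without either GDC0068 library and -0.0049 without either Degrader library. SQLE under Degrader was -0.0089 without DMSO replicate 1 and -0.0649 to 0.0830 without either Degrader library, STARD4 under Degrader -0.0112 without Degrader replicate 1 and 0.1560 without replicate 2, and HMGCS1 between the drugs -0.0084 to 0.1429 without either Degrader library. The cause was not tested. Counts were lowest for STARD4, at 281 to 419 per library, where counting error is widest; its share of the spread was not tested.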
